A study of Mus musculus with 24 samples.

Results

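The E2F transcription factors were followed as the 8 genes E2f1 to E2f8, chosen by name, with no threshold on measured values, among the 25239 genes of the TPM table, which gives transcript abundance scaled by length and by library total. All 8 had a TPM above 1 in each library and were among the 14104 genes tested. RNA was profiled in 6 mouse cell lines, each grown from 1 lung tumor of a mouse with floxed Rb1 (flox/flox) and Rbl2 (flox/flox) alleles, the Trp53 XTR/XTR allele and Rosa26 FlpO-ER. Tumors were started with an adenovirus in which the CMV promoter drives Cre, which deletes Rb1 and Rbl2 and traps Trp53 in an off state, so all groups, controls included, lack functional alleles of these pocket protein genes. The Type D lines (4711-1, 4711-18 and 4716-11, called lines 1, 2 and 3) lose viability when p53 returns, and the Type V lines (4711-11, 4716-10 and 4716-14, likewise lines 1, 2 and 3) keep their viability. The prefixes 4711 and 4716 occur in both types, and whether lines that share one came from the same animal is not given in the sources used here. From each line, 4 libraries were made after 72 h: vehicle (Control), cyclosporin A (Control + CsA), 4-hydroxytamoxifen, which activates FlpO-ER and switches Trp53 back on (Restored), and both drugs (Restored + CsA). This made 24 libraries in 8 groups of 3 lines. CsA is a drug that binds cyclophilins. The mice were of mixed B6J/129S4vJae background.

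E2F proteins bind promoters of genes for DNA synthesis and cell division, and the pocket proteins RB1, RBL1 and RBL2 hold them in check. E2F1, E2F2 and E2F3 are known as activators that drive entry into S phase, and E2F4 and E2F5 mostly work with pocket proteins to keep genes off in resting cells. E2F6 represses without pocket proteins, and E2F7 and E2F8 are atypical repressors that bind DNA without a DP partner and whose own genes are E2F targets. In small cell lung cancer, loss of RB1 is the rule, which frees the activators from this restraint. When p53 is active, its target Cdkn1a, an inhibitor of cyclin-dependent kinases, acts through the remaining pocket proteins and the DREAM complex. In DREAM, E2F4 with its DP partner contacts E2F elements, and the MuvB subunit LIN54 contacts CHR elements.

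TPM sums to 1000000 in each library and holds no counts, so depth is unknown, and it is scaled by transcript length, so levels can be set side by side between genes. Trp53 was at 10.5 to 15.3 TPM in the 12 libraries without 4-hydroxytamoxifen and at 182 to 253 TPM in the 12 with it, which matched the 4-hydroxytamoxifen labels. Trp53 does not check the CsA, line or type labels. The label says small cell lung cancer, but 5 of 10 neuroendocrine markers stayed below 1 TPM in all libraries and their summed level was 9.63 to 20.5 TPM in Type D Control and 33.0 to 79.4 TPM in Type V Control. Of the defining ones, Chga was listed at 0 in Control and Restored libraries of both types. The summed level of 4 epithelial markers was 4425 to 11820 TPM in Type D libraries and 490 to 1577 TPM in Type V libraries. That of 8 fibroblast markers was 2366 to 5361 TPM across all, of which Col1a1 averaged 0.754 TPM in Type D Control and 155 TPM in Type V Control. In Type D Control 6 of these 8 stayed below 1 TPM in each library, against 1 of 8 in Type V Control. The Type D Control sum thus came almost wholly from the remaining genes. Endothelial markers stayed below 1 TPM, and 4 of 6 leukocyte markers did so in all libraries, while Cd68 averaged 9.12 TPM in Type D Control and 39.4 TPM in Type D Restored, and 8.46 and 22.5 TPM in Type V. After restoration the 4 epithelial markers had a median log2 difference of -0.70 in each type (4 of 4 below 0 and 0 called). The 6 tested fibroblast markers had -0.01 in Type D and -1.44 in Type V (5 of 6 below 0 in each), where 1 was called lower, and 4 with the cell line as a block. Of all tested genes, 1.9% were called lower in Type V, and 2.93% with the block. The part of other cell types or cell states in the results was not tested, and in bulk RNA fewer cells of a kind and less RNA per cell cannot be told apart.

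The genes lie on 8 different chromosomes of GRCm38 (GENCODE M21) and are all protein coding. E2f1 is at chr2:154559407-154569892 on the minus strand, E2f2 at chr4:136172394-136196057 on the plus strand, and E2f3 at chr13:29906575-29986063 on the minus strand. E2f4 is at chr8:105297663-105305370, E2f5 at chr3:14578641-14606309, E2f6 at chr12:16810963-16839742 and E2f7 at chr10:110745439-110787384, all on the plus strand. E2f8 is at chr7:48866429-48881596 on the minus strand.

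E2f8 and E2f2 were the members called in any restoration comparison, so the sequence before their starts is shown beside that of E2f7, the other atypical member, and E2f3, the activator with the smallest range. The RefSeq promoter table (GRCm38.p6) gave 8 entries for 6 of the 8 members. The 250 bases before the start are written 5′ to 3′ on the gene's strand. Capitals mark 4 forms of the E2F letters on either strand, TTCCCGC first, then its relative TTCGCGC, a further form written TTGCCGC and the last, spelled TTGGCGC. They also mark the CHR letters TTTGAA.
E2f8, chr7:48881597-48881846, minus strand: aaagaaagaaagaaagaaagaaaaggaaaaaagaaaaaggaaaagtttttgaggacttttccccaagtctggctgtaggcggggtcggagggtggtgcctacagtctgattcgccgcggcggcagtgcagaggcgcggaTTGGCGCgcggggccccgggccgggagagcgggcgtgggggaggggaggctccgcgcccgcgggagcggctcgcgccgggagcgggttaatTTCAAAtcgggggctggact
E2f7, chr10:110745189-110745438, plus strand: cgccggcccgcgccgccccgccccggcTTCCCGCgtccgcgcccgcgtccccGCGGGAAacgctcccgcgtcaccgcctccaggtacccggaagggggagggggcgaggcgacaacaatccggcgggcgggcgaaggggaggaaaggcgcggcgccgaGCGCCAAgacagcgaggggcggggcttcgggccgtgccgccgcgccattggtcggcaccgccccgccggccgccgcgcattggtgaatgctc
E2f3, chr13:29986064-29986313, minus strand: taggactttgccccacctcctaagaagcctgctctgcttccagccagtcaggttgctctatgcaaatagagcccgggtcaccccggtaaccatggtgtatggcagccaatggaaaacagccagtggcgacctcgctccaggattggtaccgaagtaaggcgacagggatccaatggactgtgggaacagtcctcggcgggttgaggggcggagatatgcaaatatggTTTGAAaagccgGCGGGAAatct
E2f2, chr4:136172024-136172273, plus strand: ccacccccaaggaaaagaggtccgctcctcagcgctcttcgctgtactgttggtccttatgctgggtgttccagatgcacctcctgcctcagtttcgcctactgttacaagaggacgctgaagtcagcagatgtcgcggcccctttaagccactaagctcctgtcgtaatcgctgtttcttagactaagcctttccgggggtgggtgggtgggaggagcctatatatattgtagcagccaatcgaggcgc
The E2f8 sequence held an E2F match that began at -111, overlapping a CCAAT match at -112, and a CHR match at -20, counted from the start site. E2f7 held 3 E2F matches, at -223, -198 and -92, and 2 of CCAAT, at -46 and -14. E2f3 held an E2F match at -11 and a CHR match at -23, with 3 of CCAAT. The E2f2 window shown had no E2F match before the start and 1 just after it, at 41, with a CCAAT match at -13. A second E2f2 start had a CHR match at -31 and CCAAT matches at -174, -133 and -53, and its window (chr4:136180532-136180831) lies inside the GENCODE gene model. The E2f1 window and that of a second E2f3 start, which both lie inside the GENCODE gene models, and the E2f6 window held none of these letters. Over the 300 bases that include 50 after the start, E2F letters were found in 4 of 8 member entries and in 9.57% of all 32851 windows, CHR letters in 3 of 8 and 17.9%, and CCAAT in 5 of 8 and 37.4%. A p53 half-site was found in 0 of 8 and in 8.36% of all. These are matches of letters and not measured binding.

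Levels of the family differed widely on the per-length TPM scale, and E2f4 was the most abundant member in each library. E2f4 ranged from 90.5 to 234 TPM (median 133 over 24 libraries), followed by E2f1 at 37.6 to 106 TPM (median 55.4). E2f3, E2f5 and E2f8 had medians of 25.4, 23.1 and 24.3 TPM, E2f6 of 20.9 TPM and E2f7 of 15.1 TPM, and E2f2 was lowest at 1.73 to 16.9 TPM (median 7.84). The summed E2f level was 316 ± 53.9 TPM (SD, n = 24), of which E2f4 took 36.0% to 54.9%. E2f2 and E2f8 varied most between groups, with 5.26-fold and 5.02-fold between the highest and the lowest group mean. E2f7 varied 2.57-fold, E2f1 2.02-fold, E2f6 1.77-fold, E2f4 1.74-fold, E2f5 1.41-fold and E2f3 1.22-fold. In the order of group means, neighboring groups overlapped at all 7 steps for 6 members. The exceptions were E2f1, with no overlap at the 1 step from Type D Restored + CsA down to Type D Control, and E2f2, where both Type V groups with restoration lay clear below the rest.

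**Figure D1:**
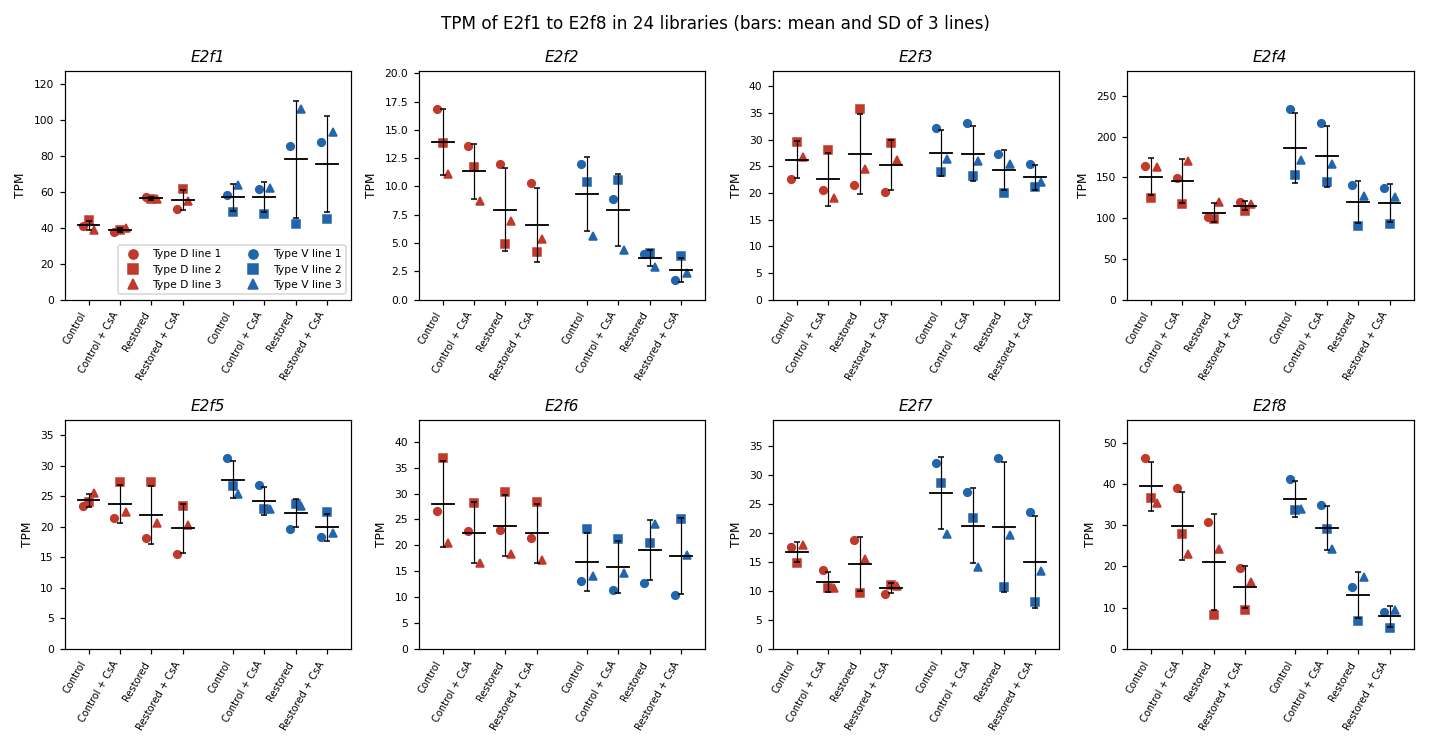
TPM (linear axis from 0) of the 8 E2f genes in the 8 groups, Type D in red and Type V in blue. Each marker is a line, and the horizontal bar and whisker are the mean and SD of 3 lines. E2f2 and E2f8 drop in both Restored groups of each type, E2f1 is higher there except in Type V line 2, and E2f3 stays between 19.0 and 35.8 TPM.

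The first comparison asked which E2f genes moved when p53 came back. E2f8 and E2f2 were lower in all 6 lines, E2f4 was lower in all 6 by a smaller amount, and E2f1 was higher in 5 of 6, while E2f3 and E2f6 had estimates of -0.21 to 0.17. With limma and Benjamini-Hochberg adjustment over all tested genes, calls needed adjusted p under 0.05 together with 1 or more on the log2(TPM + 1) scale. By this rule 0 of 8 members were called in Type D, where 6.93% of tested genes were called, and 1 of 8, E2f8, in Type V, where 5.29% were. At an unadjusted p under 0.05 the counts were 3 and 3 members, where 25.3% and 22.1% of tested genes passed. With the cell line as a block, E2f8 was also called in Type D and E2f2 also in Type V. Counting lower genes only, 2.44% of tested genes were called in Type D (4.16% with the block) and 1.9% in Type V (2.93% with the block).

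E2f8, the atypical repressor, went from 46.3, 36.6 and 35.4 TPM in Type D Control lines 1, 2 and 3 to 30.7, 8.16 and 24.3 TPM after restoration. The log2 change was -1.05 ± 0.40 SE (adjusted p = 0.098, and 0.0078 with the block). Among Type V lines E2f8 fell from 41.3, 33.8 and 33.9 TPM to 15.1, 6.71 and 17.5 TPM (-1.50 ± 0.40 SE, adjusted p = 0.020, and 0.00071 with the block). The Control and Restored values did not overlap in either type, and line 2 had the lowest Restored value in both. Without Type D line 2 the Type D change was -0.55, and without Type V lines 1, 2 or 3 the Type V change was -1.55, -1.16 or -1.78 and was not called (adjusted p = 0.11, 0.17 and 0.054). Averaged over the 6 lines of both types, a comparison added after the data were seen, E2f8 fell by 1.27 (adjusted p = 0.0027), as the 1 member called where 6.84% of genes were.

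E2f2, an activator, had 16.9, 13.9 and 11.1 TPM in the Type D Control lines and 12.0, 4.88 and 6.96 TPM after restoration. The log2 difference was -0.80 ± 0.37 SE (adjusted p = 0.18, and 0.010 with the block). The Type V values went from 12.0, 10.4 and 5.62 TPM to 4.00, 4.10 and 2.86 TPM (-1.10 ± 0.37 SE, adjusted p = 0.064, and 0.0013 with the block). Type V line 3 started lowest and ended lowest. The Type D values overlapped between Control and Restored because line 1 stayed above the Control value of line 3.

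E2f1, the activator also known to switch on cell death genes, went from 41.1, 44.1 and 38.9 TPM in Type D Control to 57.1, 56.0 and 56.0 TPM once restored (0.44 ± 0.27 SE, adjusted p = 0.34). Here the Restored lines lay close together and above all Control lines. Type V lines had 58.4, 48.7 and 63.9 TPM in Control and 85.8, 42.3 and 106 TPM when restored (0.36 ± 0.27 SE, adjusted p = 0.50), so lines 1 and 3 were higher and line 2 was lower. E2f3, the remaining activator, gave 22.5, 29.5 and 26.7 TPM for Type D Control and 21.5, 35.8 and 24.5 TPM for Restored (0.03). Its Type V levels were 32.2, 23.8 and 26.4 TPM and then 27.4, 20.1 and 25.4 TPM (-0.17). These groups overlapped, and the sign in Type D turned negative with quantile or median-ratio scaling (-0.09 and -0.07).

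E2f4, the main partner of RBL1 and RBL2, had 164, 124 and 163 TPM in Type D Control lines and 102, 98.3 and 120 TPM in Restored lines (-0.49 ± 0.21 SE, adjusted p = 0.15). The Type V lines had 234, 153 and 171 TPM and then 141, 90.5 and 128 TPM (-0.63 ± 0.21 SE, adjusted p = 0.064). All 3 Restored lines lay below all 3 Control lines in both types, and line 2 was the lowest in each of the 4 groups. Under the block, which removes the difference between lines, E2f4 passed the adjusted p alone in both types (0.00039 and 5e-05) without reaching the size of a call. E2f1 did so in Type D (0.021) and E2f2 in Type D (0.010), and with E2f8 this made 4 members in Type D and 3 in Type V under a rule that 45.3% and 40.6% of genes met. Over 6 lines, 3 members passed by p alone without the block (23.1% of genes) and 5 with it (56.3% of genes), the 2 added by the block being E2f1 and E2f5.

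E2f5, which shares the role of E2f4, had 23.4, 24 and 25.5 TPM in Type D Control lines and 18.1, 27.3 and 20.6 TPM in Restored lines (-0.16). Its Type V values were 31.2, 26.6 and 25.3 TPM and then 19.6, 23.6 and 23.4 TPM (-0.31), lower in all 3 lines. E2f6, the repressor that works with Polycomb proteins, had 26.7, 36.9 and 20.4 TPM in Type D Control lines and 22.9, 30.2 and 18.4 TPM in Restored lines (-0.21). Type V had 13.2, 23.2 and 14.1 TPM and then 12.7, 20.5 and 24.1 TPM (0.17), where line 3 alone was higher. Adjusted p values for E2f5 and E2f6 were 0.32 to 0.87.

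E2f7, the other atypical repressor, did not follow E2f8 in each line. Its Type D lines had 17.5, 14.8 and 17.8 TPM in Control and 18.7, 9.60 and 15.4 TPM when restored (-0.23 ± 0.37 SE, adjusted p = 0.80). Its Type V lines had 32.0, 28.6 and 19.9 TPM and then 32.9, 10.6 and 19.5 TPM (-0.45 ± 0.37 SE, adjusted p = 0.56). Line 2 of each type was lower (-0.57 and -1.35), and the other lines lay between -0.20 and 0.09. Over all tested genes, 16.1% were lower in all 6 lines after restoration, as E2f2, E2f4 and E2f8 were among the 8 members.

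**Figure D2:**
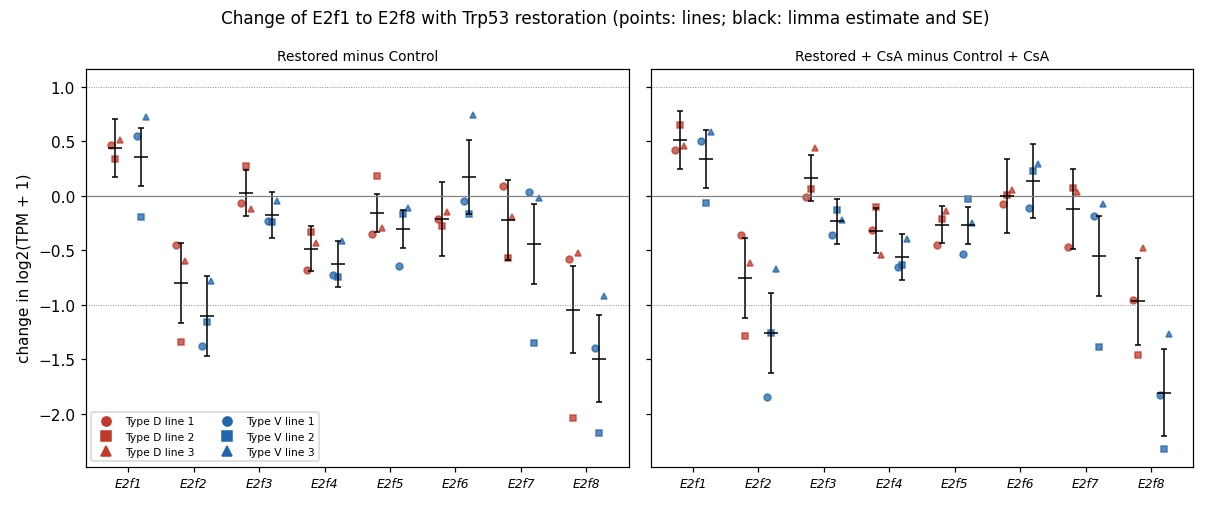
Change in log2(TPM + 1) of each E2f gene with p53 restoration, without CsA (left) and with it (right). Colored markers are single lines, black bars are the limma estimate and its SE, and dotted lines mark a change of 1 in either direction. The estimates are lowest for E2f8 and E2f2 and above 0 for E2f1 in both panels.

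With CsA present the pattern over members was alike in order. E2f8 went from 39.0, 27.8 and 22.9 TPM to 19.6, 9.43 and 16.2 TPM in Type D (-0.97 ± 0.40 SE, adjusted p = 0.15). Type V lines fell from 34.8, 29.1 and 24.2 TPM to 9.06, 5.03 and 9.49 TPM (-1.81 ± 0.40 SE, adjusted p = 0.0064). E2f2 went from 13.6, 11.7 and 8.71 TPM to 10.3, 4.20 and 5.32 TPM in Type D (-0.76) and fell from 8.86, 10.5 and 4.41 TPM to 1.73, 3.83 and 2.39 TPM in Type V (-1.26 ± 0.37 SE, adjusted p = 0.041). Thus 0 of 8 members were called in Type D, against 5.41% of genes (1 member at an unadjusted p under 0.05, as 22% of genes), and 2 of 8 in Type V, against 4.61%. Both Type V calls were lost without Type V line 1 or line 2, where E2f8 changed by -1.79 and -1.55 and E2f2 by -0.97 and -1.26. E2f2 alone was lost without Type D line 2 or line 3. Over 6 lines the same members were the 2 called (-1.39 and -1.01), against 5.91% of genes. E2f1 was higher in 5 of 6 lines, with log2 differences of 0.51 in Type D and 0.34 in Type V, and E2f4 was lower in 6 of 6 (-0.32 and -0.56).

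The size of the restoration effect was then compared between types. In Type V the estimates were lower for E2f8 by 0.45 ± 0.56 SE and for E2f2 by 0.31 ± 0.52 SE than in Type D, and for E2f1 the difference was 0.08 ± 0.38 SE. None of the 8 differences was called by limma (adjusted p = 1 for each, and 0.26 to 0.86 with the block), and 0.0284% of tested genes were called. None had an unadjusted p under 0.05 in either fit, where 3.83% of genes did without the block and 22.4% with it. The SEs are wide, so these values do not show that the types respond alike.

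The makeup of the family differed between Control and Restored libraries. In Type D the share of E2f1 in the summed E2f TPM was 12.2% ± 1.25 (SD, n = 3) in Control and 20.2% ± 0.585 in Restored, and the 2 ranges did not overlap. For Type V lines it was 14.9% ± 2.56 and 25.1% ± 5.63, with the lowest Restored line at 19.4% and the highest Control line at 17.7%. The share of E2f8 was 11.6% ± 1.25 and 7.46% ± 4.02 in Type D, where the ranges overlapped, and 9.42% ± 0.316 and 4.19% ± 1.01 in Type V, where they did not. E2f4 made up 44.1% ± 5.09 and 38.1% ± 3.31 in Type D and 47.6% ± 3.82 and 40.0% ± 2.74 in Type V. The sum itself was 340 ± 17.6 and 280 ± 8.40 TPM in Type D and 387 ± 58.3 and 301 ± 71.8 TPM in Type V. Shares were described and not tested.

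**Figure D3:**
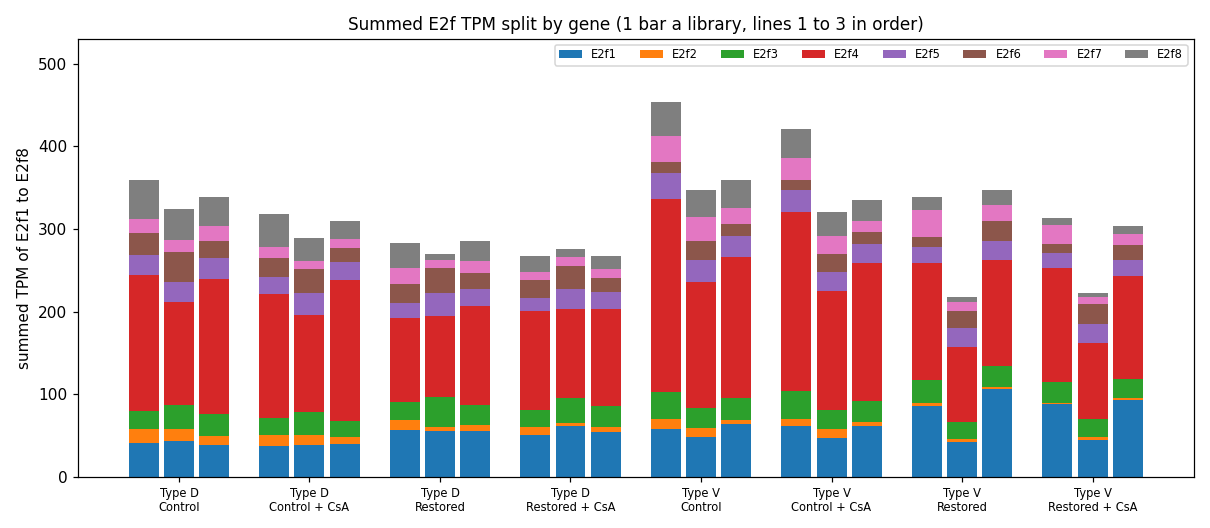
Summed TPM of E2f1 to E2f8 in each of the 24 libraries, split by gene. Bars are single libraries in the order of lines 1 to 3 of each group. E2f4 is the widest band in each bar, and in the Restored bars the E2f1 band takes a larger share than in the Control bars of the same type. The E2f8 band takes a smaller share there in Type V, while the Type D ranges overlap.

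The wider E2F pathway was read from lists of known genes. These lists were chosen with earlier results of these data known, so what they show is a description. The DP partner genes Tfdp1 and Tfdp2, which E2F1 to E2F6 need to bind DNA, were not called in either type (log2 differences of 0.17 and -0.24 in Type D and 0.22 and 0.07 in Type V). Of the 3 pocket protein genes, Rb1 transcripts rose in both types. Rb1 rose from 7.75, 13.4 and 10.1 TPM to 22.1, 40.6 and 39.3 TPM in the Type D lines (1.595 ± 0.30 SE, adjusted p = 0.0011). The Type V lines rose from 11.7, 11.5 and 17.3 TPM to 50.7, 48.0 and 68.8 TPM (1.97 ± 0.30 SE, adjusted p = 0.00020). TPM is summed over the gene, and reads outside the deleted part of the floxed allele still count, so this does not measure functional RB1. Rbl1, the pocket protein gene that was not targeted, was at 23.9 to 45.4 TPM in Control and Restored libraries and was not called (-0.11 in Type D and -0.003 in Type V), nor was Rbl2 (0.30 and 0.50). Cdkn1a, at 109 ± 19.3 TPM in Type D Control, rose to 1991 ± 499 TPM, and Type V lines rose from 52.6 ± 17.7 to 1469 ± 353 TPM (SD, n = 3 lines, adjusted p = 3.5e-08 and 4.9e-09).

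Genes of the G1/S transition that E2F is known to activate moved less than those of G2 and mitosis. Because the lists were chosen with earlier results of these data known, this contrast is a description and supports nothing on its own. Of 40 tested G1/S targets, 3 were called lower and 1 higher in Type D and 1 lower in Type V. Of all tested genes, 6.93% were called in Type D and 5.29% in Type V, in either direction. The median log2 difference of the list was -0.45 and -0.40 beside 0.07 and 0.05 over all tested genes. Mcm10, a replication initiation factor, fell in both types (-1.75 and -1.48, adjusted p = 4.1e-05 and 0.00035), and Tk1, thymidine kinase, fell in Type D (-1.15, adjusted p = 0.00043). Msh6, a mismatch repair gene, was the 1 that rose in Type D (1.08, adjusted p = 0.0077). All 30 G2/M genes were lower in each line of both types, with medians of -3.04 and -2.09. Of these, 29 were called lower in each type, where 2.44% of all tested genes were called lower in Type D and 1.9% in Type V. Plk1, a mitotic kinase, fell from 163 to 12.7 TPM among Type D lines and from 167 to 27.0 TPM among Type V lines (group means, adjusted p = 3.8e-06 and 0.00039). Kif11, a spindle motor, fell in Type D (-3.60) and Bub1b, a spindle checkpoint kinase, in Type V (-2.61). The E2f members, at a median of -0.22 and -0.38, sat nearer to the G1/S genes.

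Genes of the complexes that act beside E2F were mixed, where 6.93% of all tested genes were called in Type D and 5.29% in Type V. Of 7 genes of the MuvB core and its activators, Foxm1 and Mybl2, the activators, fell in both types (-2.66 and -2.46 in Type D and -1.94 and -1.77 in Type V), and Lin9 also fell in Type V (-1.16). Of 16 tested G1/S cyclins, CDKs and inhibitors, Cdkn1a was the 1 called higher in each type. Ccna2, cyclin A2, fell in both (-3.51 and -2.51), and the inhibitor genes Cdkn2d in Type D (-1.26) and Cdkn2a in Type V (-1.02) fell. None of the 15 PRC1.6 genes, whose products work with E2F6, was called in either type, and none of 6 germline genes that E2F6 is known to hold down reached the level to be tested. Of 5 tested cell death genes linked to E2F1, 3 rose in Type D and 2 in Type V. Pmaip1 and Bbc3, both also known p53 targets, rose in Type D (2.78 and 2.15, adjusted p = 0.0043 and 3.6e-05), as did Apaf1, and Apaf1 and Bbc3 rose in Type V (1.65 and 1.36, adjusted p = 1.7e-05 and 0.0041). In Type V, Pmaip1 had a log2 difference of 1.81 (adjusted p = 0.067). Whether these rises involve E2F1 was not tested.

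Read line by line, the line with the lowest E2f8 difference in each type was also the one with the lowest G1/S list mean. The mean log2 difference over the 40 G1/S targets was -0.20, -0.77 and -0.25 in Type D lines 1, 2 and 3 and -0.37, -0.94 and -0.02 in Type V lines 1, 2 and 3. The E2f8 differences in the same order were -0.58, -2.04 and -0.52, and -1.39, -2.18 and -0.92. Line 2 was thus lowest in both types for E2f8, E2f7 and the G1/S genes, and it was lowest for E2f1 as well (0.34 and -0.20). E2f2 was lowest in Type D line 2 (-1.34) but in Type V line 1 (-1.38). With CsA present, Type D line 2 was instead the highest for E2f7 (0.07) and E2f1 (0.65). The G2/M list gave -2.56, -3.94 and -2.25 in Type D and -2.09, -2.02 and -1.83 in Type V, so Type V line 2 did not stand apart in it. With 3 lines a type this is a description.

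**Figure D4:**
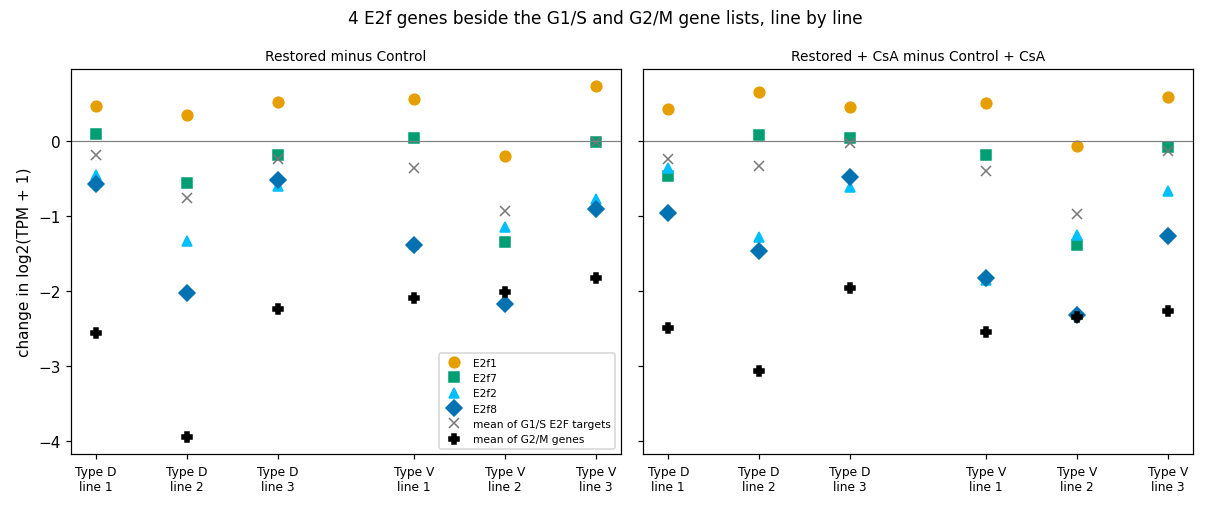
Change in log2(TPM + 1) with p53 restoration in each of the 6 lines for E2f1, E2f7, E2f2 and E2f8 and for the mean of 40 G1/S targets and of 30 G2/M genes, without CsA (left) and with it (right). Line 2 of each type has the lowest E2f8 point in both panels, while the G2/M mean lies at -1.83 or below in each line of the left panel.

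CsA by itself was compared next. In Control cells all 8 members had estimates below 0 in both types, and in Restored cells 7 in Type D and 8 in Type V did, but limma called 0 of 8 in each of the 4 comparisons. The share of all genes called was 0% in Control cells of Type D and of Type V, 0.0142% in Restored Type D and 0% in Restored Type V. No member had an unadjusted p under 0.05 without the block, as 0.808% of genes did in Control and 1.62% in Restored Type D, and 0.383% and 0.709% in Type V. With the block 2 members did in Control Type D (6.76% of genes), 0 in Restored Type D (12.6%), 0 in Control Type V (4.32%) and 1 in Restored Type V (4.49%). With quantile or median-ratio scaling E2f1 and E2f3 turned positive in Control Type V, and with quantile normalization E2f1 and E2f4 did in Restored Type V. E2f7 had the lowest estimate over 6 lines in Control cells (-0.42 ± 0.26 SE). Type D lines had 17.5, 14.8 and 17.8 TPM in Control and 13.6, 10.4 and 10.5 TPM with CsA. Type V lines had 32.0, 28.6 and 19.9 TPM and 26.9, 22.6 and 14.1 TPM with CsA. These 6 of 6 lower lines are shared with E2f8 (-0.36), among 8.46% of all genes that were lower in all 6. In Restored cells E2f2 and E2f5 were lower in 6 of 6 lines (-0.31 and -0.15), against 4.91% of genes, and E2f6, E2f7 and E2f8 in 5 of 6 (-0.11, -0.43 and -0.47).

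The G1/S and G2/M lists were read beside the members. In Control cells, averaged over 6 lines, 40 of 40 G1/S targets and 30 of 30 G2/M genes had an estimate below 0 (medians -0.19 and -0.30, beside -0.02 over all genes), and 0 of them were called. In Restored Type D cells the G2/M median was 0.11, with 22 of 30 above 0, and the G1/S targets split 20 to 20. Line 2 set that sign, since the G2/M medians of lines 1, 2 and 3 were -0.06, 0.51 and -0.06, and E2f8 likewise had -0.62, 0.19 and -0.56. In Restored Type V cells the G2/M median was -0.72 and 30 of 30 were below 0. The E2f8 estimates were -0.33 in Restored Type D and -0.62 in Restored Type V. Comparisons that share the same libraries are not independent of each other.

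**Figure D5:**
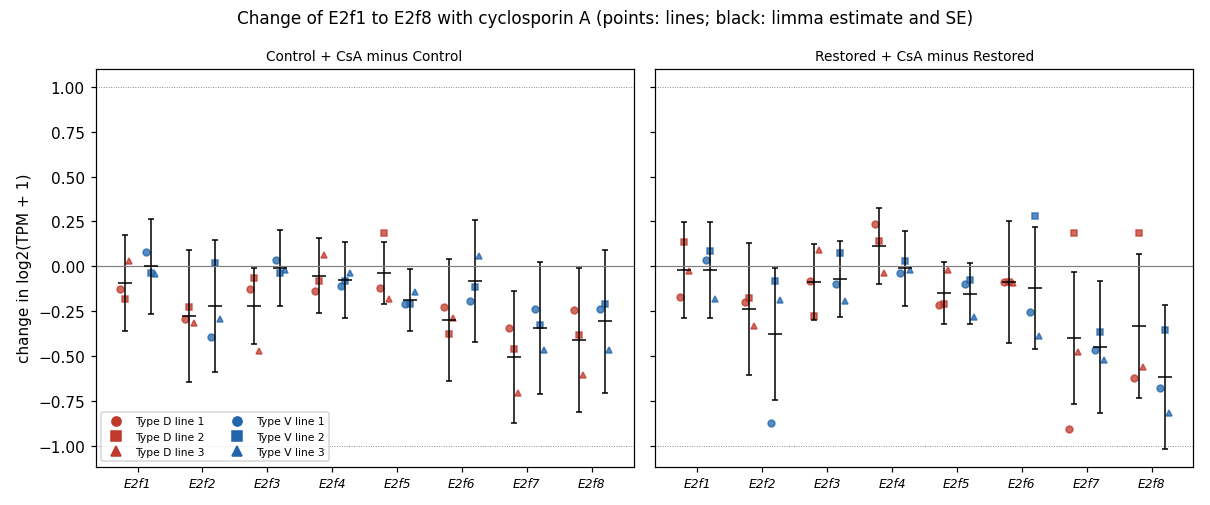
Change in log2(TPM + 1) of each E2f gene with CsA in Control cells (left) and in Restored cells (right). Colored markers are single lines and black bars are the limma estimate and its SE. Most estimates lie between 0 and -0.50, and E2f7 and E2f8 lie lowest.

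The types were compared within each condition. E2f7 and E2f1 were lower in Type D than in Type V without restoration, and E2f2 was higher in Type D with restoration, each without overlap of the 3 lines of the types, but no member passed the adjusted threshold. For E2f1 in Control the Type D lines reached at most 44.1 TPM and the Type V lines at least 48.7 TPM (-0.44 ± 0.27 SE, adjusted p = 0.30). For E2f7 they reached at most 17.8 TPM and at least 19.9 TPM (-0.63 ± 0.37 SE, adjusted p = 0.28). E2f6 was at 20.4 to 36.9 TPM in Type D and at 13.2 to 23.2 TPM in Type V (0.71 ± 0.34 SE, adjusted p = 0.18), with overlap. E2f8 was at 35.4 to 46.3 TPM and 33.8 to 41.3 TPM (0.11). In Control 2 of 8 members did not overlap, against 31.4% of tested genes, and in Control + CsA the same 2, against 31.8%. In Restored and in Restored + CsA E2f2 was the 1 member without overlap, against 29.2% and 30% of genes.

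E2f2 in Restored was at 12.0, 4.88 and 6.96 TPM in Type D and at 4.00, 4.10 and 2.86 TPM in Type V (0.88 ± 0.37 SE, adjusted p = 0.12). In Restored + CsA it was at 10.3, 4.20 and 5.32 TPM and at 1.73, 3.83 and 2.39 TPM (1.02 ± 0.37 SE, adjusted p = 0.079). Type D line 2 was closest to the Type V lines each time, and line 1 was highest. With quantile normalization the latter was called (1.21, adjusted p = 0.038). The count of members called by limma was 0 of 8 in each condition, while 8.83%, 9.88%, 9.44% and 7.82% of all tested genes were called in Control, Control + CsA, Restored and Restored + CsA. At an unadjusted p under 0.05 there were 0, 1, 1 and 2 members, where 27.3%, 28.7%, 29.2% and 26.4% of genes passed. Each line gives 1 library per condition, so the type comparison takes no block, and in Control the summed epithelial and neuroendocrine markers and Col1a1 did not overlap between the types.

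Across the 24 libraries the members fell into patterns that tracked one another to different degrees. After the mean of each line was removed, E2f2 and E2f8 had a Pearson r of 0.95, E2f2 and E2f4 of 0.85, and E2f4 and E2f8 of 0.84. E2f7 and E2f8 had 0.75, and E2f1 ran opposite to E2f4 (-0.69), E2f2 (-0.67), E2f5 (-0.65) and E2f8 (-0.56). E2f6 had no r above 0.29 with any member. These points share lines and treatments and TPM is a share of a fixed sum, so the values are descriptions.

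Among the other 14096 tested genes, the 3 with the highest r to each member over 24 libraries were listed. For E2f8 they were Cdc45, a replication helicase factor (0.93), Ptbp1, a splicing regulator (0.93), and Uhrf1, which maintains DNA methylation (0.93), and with line means removed r was 0.97, 0.96 and 0.98. Cdc45 and Uhrf1 are on the G1/S list. E2f2 was closest to Hnrnpc (0.94), Ppa1 (0.91) and Prmt5 (0.91), and E2f4 to Szrd1 (0.93), Nup133 (0.92) and Urb2 (0.92). E2f1 was closest to Cklf, Scoc and Rab11fip3 (all 0.94). E2f7 was closest to Eri1 (0.91), Srsf3 (0.90) and Smarca5 (0.89). E2f3 was closest to Pkn2 (0.89), Slc4a1ap (0.88) and Armc1 (0.88), and E2f5 to Cct7 (0.83), Sdad1 (0.82) and Orc5 (0.81). For E2f6 the closest were Slc35c1 (0.88), Tsc22d1 (0.87) and Shc1 (0.87), but with line means removed these were 0.28, -0.09 and -0.14, so their likeness lay in differences between lines.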

How the data were processed

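RNA-seq (stranded mRNA, single-end) was read from 1 table of TPM values that the authors deposited, used as deposited. The study names kallisto or HISAT2 for alignment and gives both mm10 and GRCm39 there, which leaves the aligner and the build of the TPM table uncertain. Each column sums to 1000000, so a rise in abundant genes lowers others. Groups came from the labels. Members and gene lists were chosen with earlier results of these data known, some lists with that analysis as a start, and support nothing on their own.

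Genes that reached 1 TPM in 3 or more libraries were tested as log2(TPM + 1), which understates changes of low genes, with limma 3.58.1 (lmFit, contrasts.fit, eBayes with trend) in R 4.3.3, using 1 coefficient for each of 8 groups. Benjamini-Hochberg adjustment was over 14104 genes within each of 13 two-sided comparisons and 4 added averages over lines. Calls needed adjusted p under 0.05 together with 1 or more log2. The labels pair the 4 libraries made from each cell line, and after group means were removed same-line libraries had r of 0.599 to 0.929 (36 pairs). Libraries of different lines of 1 type in different conditions had r of -0.675 to 0.0438 (72 pairs). Removing the mean of only 3 lines pushes this second r below 0 by construction, so it does not show that lines are unlike. The cell line block was an alternative, beside a pseudocount of 0.1, no filter, a minimum of 5 TPM, quantile and median-ratio scaling (factors 0.887 to 1.12), the compared groups alone, and each line left out. Nothing says that the lines were grown more than once, so no p-value measures the spread between cultures of 1 line. Without the block, p-values measure the spread between lines within groups, and the 4 libraries of a line enter as independent. With the block they measure how differences within lines vary between lines. For Type D minus Type V in Control, limma called 624 genes higher and 622 lower. Fitted to the compared groups alone, it called 307 and 324. The script was tested on simulated data. Named genes were the members, Tfdp1, Tfdp2, the pocket protein genes, Cdkn1a, Trp53, the 3 genes of highest r with each member, and from each list the 2 largest called rises and falls with the same sign in 3 lines, per type. Others named (Lin9, Apaf1 in Type D, Pmaip1 in Type V, and the markers) were chosen after their values were seen. Some genes of the lists are not reported here. Promoter windows came from RefSeq. Figures were drawn with matplotlib 3.10.9.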

Additional observations from a re-analysis of the deposited data

How the results depend on the processing

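The number of E2f members called depended on the setting. For Restored minus Control in Type V (1 called, E2f8), quantile normalization and the replicate block each gave 2 (E2f2 and E2f8), fitting only the compared groups gave 0, and leaving out 1 line at a time gave 0 to 1. In Type D (0 called) the replicate block gave 1, E2f8. With CsA present, the 2 calls of Type V became 1 without the filter, 0 in the compared groups alone and 0 to 2 without 1 line. For Type D minus Type V in Restored + CsA (0 called) quantile normalization gave 1. Averaged over 6 lines, the 1 call after restoration became 2 with a pseudocount of 0.1, quantile normalization or median-ratio scaling and 1 to 2 without 1 line, and the 2 calls with CsA present became 1 to 2 without 1 line. The replicate block pairs libraries by cell line and changed no other call of a member. Where a line is left out or a fit uses fewer groups, fewer samples enter it, and for the other settings the cause was not tested. E2f8 after restoration kept its direction in all settings, between -1.78 and -1.16 for Type V lines and between -1.31 and -0.55 for Type D lines. Over all members and comparisons, 1736 values were recomputed for 136 results, of which 1649 kept direction and side of the threshold, 15 lost and 10 gained a call, 62 changed sign without being called in either, and 0 reversed a call. Depth cannot be read from TPM, so no limit on low values is given.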
